A study of Mus musculus with 9 samples.

Results

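The longest CTCF interactions of mouse embryonic stem cells, those whose ends lie at least 800 kb apart, were examined. They were chosen by span alone: 1074 of the 49630 CTCF interactions met the limit, which is 2.16% of the list. All libraries came from E14, a line of mouse embryonic stem cells, with the genotype CTCF AID. The auxin-inducible degron (AID) marks the tagged CTCF for destruction when the auxin IAA is added, and the cells labelled untreated carry it too. They grew without serum in medium with LIF and the inhibitors PD0325901 and CHIR99021. The assay was MNase HiChIP, in which micrococcal nuclease cuts crosslinked chromatin, nearby ends are ligated, and an antibody enriches the ligated DNA. The groups were CTCF without IAA (2 libraries), RAD21 without IAA (3 libraries), H3K27ac without IAA (2 libraries) and H3K27ac after 12 h of IAA (2 libraries). CTCF and RAD21 interactions after IAA, and the level of CTCF protein, were not analysed here.

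Each group has 1 list of called interactions that pools its libraries, so values carry no error between replicates, and the spread between libraries is unknown. The authors' models rested on 2839756 CTCF contacts, 1517698 RAD21 contacts, and 12551236 untreated and 14629323 IAA H3K27ac contacts. H3K27ac interactions lay at the promoters of 9 of 10 embryonic stem cell markers in both lists, and Esrrb was the marker with 0. Markers of primitive endoderm (0 of 5) and of neural cells (0 of 4) had none in either list. Of the trophoblast, mesoderm and feeder markers, Cdx2, Eomes, Tbx6 and Col1a1 had 1 or 2 untreated interactions each, and none had any after IAA. The interval given with a share is a 95% Wilson interval, which covers counting error only.

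CTCF is a zinc finger protein that binds a directional DNA motif. Cohesin, of which RAD21 is a subunit, is thought to enlarge chromatin loops until it meets CTCF bound with its motif pointing into the loop, so that the motifs at both ends of a loop usually face each other. Such loops help to set which enhancers a promoter can reach, and H3K27ac marks active enhancers and promoters.

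The CTCF sites of some of the interactions that the results turn on are shown first. Each line gives the match to the 14-base core of the CTCF consensus in capitals, with up to 1 mismatch, and 8 bases on either side, read 5′ to 3′ on the strand of the motif in the GRCm38 reference. A plus site points to higher coordinates and a minus site to lower ones. The first pair belongs to the interaction with the most contacts, whose sites point the same way. The next 3 pairs belong to other strongly counted interactions and face each other. The Hoxa7 pair shares its right anchor with the start of Hoxa7, the Pts pair ends at the start of Pts, and the last is 1 of the 2 pairs that face away from each other, chosen after its values were seen.
chromosome 12 left, chr12:80982508-80982537, plus: cgattctgCCACCAGATGGCGGcatggccc
chromosome 12 right, chr12:81788311-81788340, plus: cagacacaCCAGAAGAGGGCACcggatcct
Neto2 left, chr8:85700600-85700629, plus: ggcctggcCCGCAAGGGGGCGCtgcccgca
Neto2 right, chr8:86585276-86585305, minus: caagctggCCAGCAGATGGCAGgttcttcc
chromosome 13 left, chr13:83715162-83715191, plus: tcttttgtCCACTAGAGGTCACtggcccct
chromosome 13 right, chr13:84758718-84758747, minus: tcagatgaCCACTAGATGGCATgaaagcac
Ptpru left, chr4:130960281-130960310, plus: gaatctggCCACCAGGTGGCGCcatcagct
Ptpru right, chr4:131838343-131838372, minus: cgacaccaCCAGCAGGGGACGCctcgagac
Hoxa7 left, chr6:51170595-51170624, minus: acgtgttaCCGCCAGATGGCATaaggctca
Hoxa7 right, chr6:52221799-52221828, minus: agaaaattCCAGGAGATGGCAGtgtggctc
Pts left, chr9:49494112-49494141, plus: taacatagCCACTAGATGGCAGtcccagtc
Pts right, chr9:50528387-50528416, minus: gcactcacCCGGGAGAGGGCGGtatagctc
divergent left, chr9:49489081-49489110, minus: cattccgcCCACAAGAGGGCAGtgctactc
divergent right, chr9:50452005-50452034, plus: aggaagaaGCGGCAGATGGCAGagccggag

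The span of the 1074 interactions ran from 800 to 1954 kb, with a median of 978 kb. Many were near copies of each other: grouped where both anchors lay within 5 kb, they formed 844 groups, of which 682 held a single interaction and the largest held 8. Their ends occupied 1428 of the 34038 anchor bins of 1 kb in the CTCF list. Of these bins, 1050 served 1 interaction and 378 served 2 or more. Just inside the limit lay 1 interaction of 800 kb with 7 contacts, and just outside lay 4 of 799 kb with 7 to 11 contacts. None of those 5 had RAD21 support.

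Long interactions were built on few contacts. Each had 6 to 54 contacts with a median of 8, against 14 for the 48556 shorter interactions, and together they held 10828 contacts, 1.13% of all listed CTCF contacts. The authors' model, which takes both distance and the coverage of the bins into account, expected a median of 1.20 contacts (range 1.02 to 1.58), against 2.98 for shorter interactions. The ratio of contacts to that expected count therefore had a median of 6.78 (95% interval of the median 6.57 to 6.99, quartiles 5.53 and 9.34, highest 38.6). Among shorter interactions the median ratio was 4.69.

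The median ratio was higher in each longer class up to 1200 kb. It was 3.73 under 100 kb, 4.73 at 100 to 200 kb, 5.32 at 200 to 400 kb, 5.96 at 400 to 600 kb and 6.34 at 600 to 800 kb. It was then level, with 6.78 at 800 to 1000 kb, 6.88 at 1000 to 1200 kb and 6.73 at 1200 kb or more. In these 3 classes the median expected count with coverage bias differed little, at 1.26, 1.17 and 1.12. Since only pairs with a q-value of 0.05 or less are listed, a pair with a low expected count needs a high ratio to be listed at all, and the lowest ratio among the long interactions was 4.73. Distance alone gave a much lower expectation, with a median of 0.0656 contacts for the long interactions. The ratio to that expectation had a median of 138, against 15.9 for shorter interactions.

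**Figure D1:**
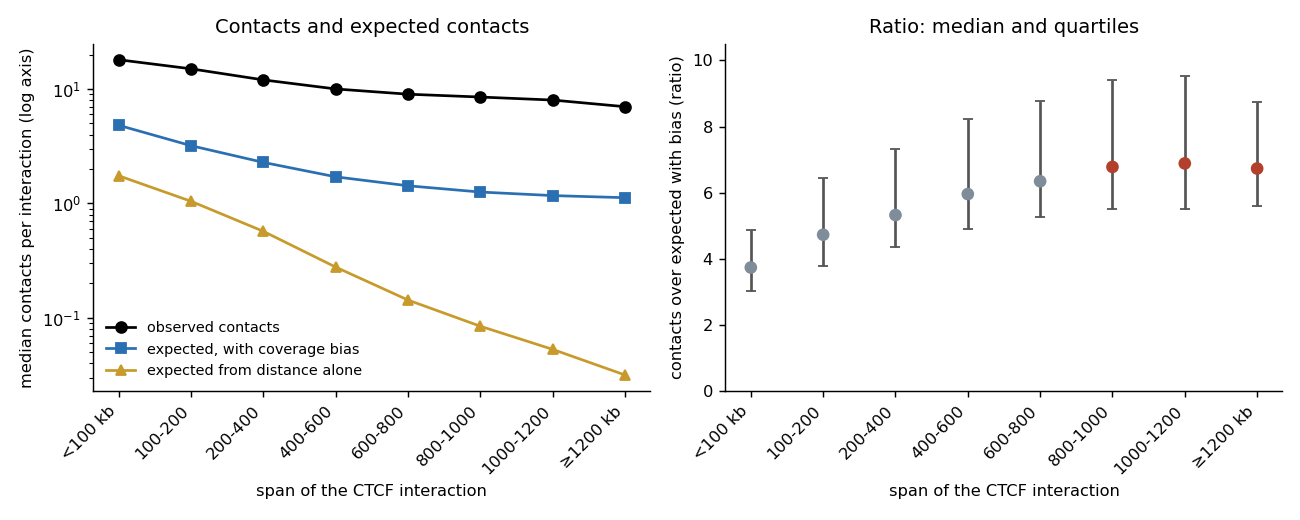
Contacts and expected contacts of CTCF interactions in 8 classes of span; the left plot shows medians on a log axis and the right plot shows the median ratio of contacts to expected contacts with quartile bars, with classes of 800 kb or more in red. Contacts fall from a median of 18 to 7 across the classes, while the ratio goes from 3.73 to a level between 6.73 and 6.88 in the 3 longest classes.

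The most counted interactions joined named loci across large distances. On chromosome 12, the bins chr12:80982001-80983000 and chr12:81788001-81789000, both intergenic, shared 54 contacts against 1.46 expected, a ratio of 37.1. The 806 kb between them enclosed 11 protein-coding genes, among them Smoc1, which encodes a secreted calcium-binding protein, and Med6, a Mediator subunit. The highest ratio, 38.6, belonged to 52 contacts between chr8:85700001-85701000, which holds the start of Neto2, an auxiliary subunit of kainate receptors, and chr8:86585001-86586000. No other CTCF anchor lay between those bins, and the genes enclosed were Itfg1, Phkb and Abcc12. RAD21 gave 34 and 37 contacts at these 2 pairs.

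A further pair framed the gene for the morphogen Sonic hedgehog. The bins chr5:28451001-28452000, 15 kb from the start of Shh, and chr5:29293001-29294000, which overlaps an exon of Lmbr1, had 44 CTCF contacts and 22 RAD21 contacts. Shh and Rnf32 were the genes enclosed, and Lmbr1 is known as the gene whose intron holds the limb enhancer of Shh. Neither H3K27ac list had an interaction inside that pair or across its anchors. Next came 40 contacts on chromosome 12 around Sp4 and Sp8, 2 zinc finger transcription factors, between chr12:117993001-117994000 in an intron of Dnah11 and chr12:118855001-118856000. The pair chr15:77004001-77005000 and chr15:77982001-77983000, around Rbfox2, a splicing regulator, and the Apol gene family, had 38. On chromosome 13, chr13:83715001-83716000 and chr13:84758001-84759000 had 36 contacts over 1043 kb. They enclosed Tmem161b and lay beside Mef2c, a transcription factor of muscle and neurons, whose start was 211 kb from the left bin.

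The 5 longest interactions had 6 to 11 contacts each, and none was in the RAD21 list. The longest, 1954 kb, joined chr7:72400001-72401000 to chr7:74354001-74355000 in an intron of Slco3a1 with 7 contacts. It enclosed Chd2, a chromatin remodeller, and Rgma, a guidance molecule, with Fam174b and St8sia2. Another, 1922 kb, joined chr7:69490001-69491000 to chr7:71412001-71413000 with 6 contacts and enclosed Nr2f2, a nuclear receptor, with Gm10295. On chromosome 9, 6 contacts over 1900 kb joined chr9:100454001-100455000 to the start of Ephb1, an ephrin receptor, and Stag1, a cohesin subunit, was among the 8 genes enclosed. The best counted of the 5, with 11 contacts over 1899 kb, joined chr12:26533001-26534000 and chr12:28432001-28433000 and enclosed only Sox11, a transcription factor of neural progenitors.

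Anchors of the long interactions more often held a CTCF core match than other CTCF anchors did. A match with up to 1 mismatch was found in 920 of 1428 anchor bins, 64.4% (61.9 to 66.9%), against 40.7% of the 32610 bins that had shorter interactions only. Of all 1 kb bins of the genome, 2.75% held a match. With no mismatch allowed, the shares were 24.2%, 12.1% and 0.289%. The search read both strands, and 1.26% of the long interactions' bins had matches on both.

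The sites faced each other in most long interactions. In 454 of them, each anchor had matches on 1 strand only, and 388 of these, 85.5% (81.9 to 88.4%), were convergent, with a plus site at the left anchor and a minus site at the right. Another 64 pointed the same way and 2 were divergent. Among shorter interactions 66.1% were convergent and 2.49% divergent. The convergent share went from 57.6% under 100 kb through 78.3% at 600 to 800 kb to 81.9%, 88.0% and 91.5% in the 3 longest classes. Taken by anchor, 91.5% of the left anchor bins with 1 strand were plus (422 of 461) and 91.8% of the right ones were minus (412 of 449). Anchor bins and near copies recur across interactions, so these shares rest on fewer independent sites than their counts.

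The exceptions included well-counted pairs. The chromosome 12 interaction with the most contacts had a plus site at both ends, printed above. Its right bin held 2 matches, both on the plus strand. The Hoxa7 pair had a minus site at both ends. One divergent pair, chr9:49489001-49490000 and chr9:50452001-50453000 around Ncam1, a cell adhesion molecule, had 12 contacts and no RAD21 support.

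The direction of each anchor's interactions was counted next. Left anchors of long interactions sent 84.4% of all their CTCF interactions to the right, and right anchors sent 83.8% to the left. Counting only their interactions under 800 kb, which the choice of members did not use, 78.4% of 2439 ran inward at left anchors and 77.1% of 2388 at right anchors. Bins with interactions to 1 side only were 68.0% of the long interactions' anchors, which had a median of 3 interactions, and 78.2% of the other CTCF anchors, which had a median of 2. In all, 12 bins were the left anchor of one long interaction and the right anchor of another.

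RAD21 support was less common among the long interactions than in the list as a whole, and it followed the contact count. The same pair of bins was in the RAD21 list for 234 of 1074, 21.8% (19.4 to 24.4%), where 34.4% of all CTCF interactions had such support and 34.7% of the shorter ones. The low share was not particular to spans of 800 kb or more. It was 23.2% (21.1 to 25.3%) at 600 to 800 kb. Within each class of contact count, however, the long interactions had the higher share. With 4 to 7 contacts it was 8.80% (39 of 443) against 5.23% of shorter interactions, and with 8 to 9 contacts 12.1% against 8.60%. With 10 to 14 contacts it was 27.8% (22.5 to 33.7%) against 18.1%, and with 15 to 24 contacts 64.4% (54.9 to 73.0%) against 39.2%. With 25 or more contacts, 30 of 34 long interactions were supported, 88.2%, against 78.1%. The intervals of the long and the shorter class did not overlap in the classes of 4 to 7, 10 to 14 and 15 to 24 contacts. These intervals treat interactions as independent, although near copies and shared anchor bins recur, so they are too narrow and their separation is not a test. In each contact class the long interactions also had a lower expected count, for example a median of 1.28 against 3.93 with 15 to 24 contacts, so the same count stood further above the model. The part of that difference in the result was not tested.

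**Figure D2:**
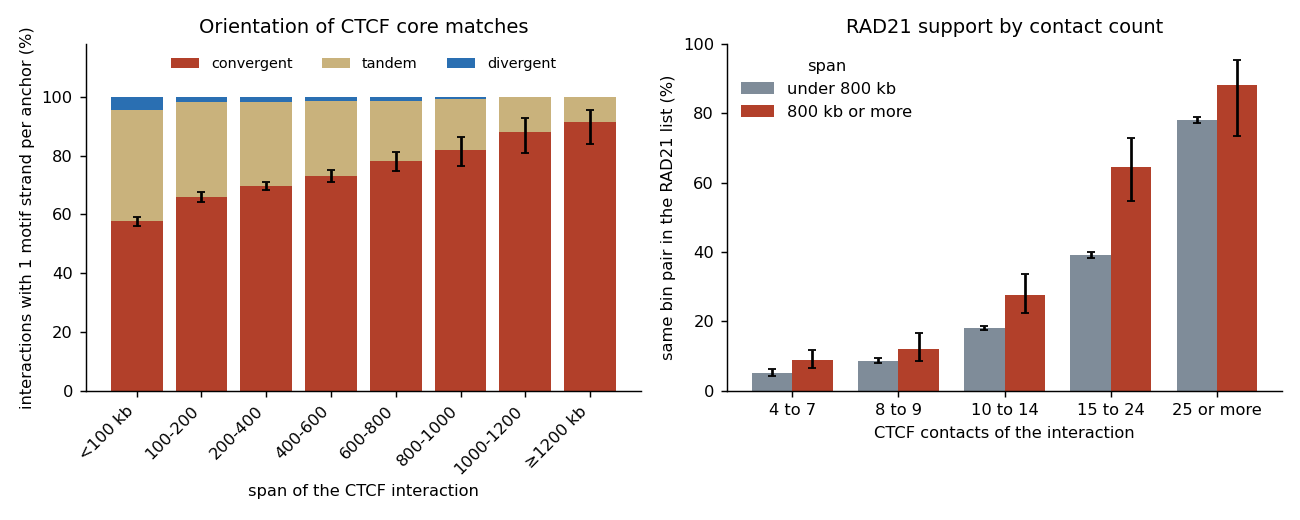
Left, share of convergent, same-way (tandem) and divergent CTCF core matches in interactions with 1 motif strand at each anchor, by span, with 95% Wilson bars on the convergent share; right, share of CTCF interactions with the same bin pair in the RAD21 list by CTCF contact count, for spans under 800 kb (grey) and 800 kb or more (red), with 95% Wilson bars. The convergent share goes from 57.6% to 91.5% across the classes, and the red bar is above the grey one in all 5 contact classes.

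Supported interactions had a median of 13 CTCF contacts and a ratio of 10.7, against 8 and 6.33 for the 840 without support. Convergent sites were found in 95.7% of supported pairs with 1 strand at each anchor (112 of 117) and in 81.9% of the others (276 of 337). By orientation, 28.9% of the 388 convergent pairs had RAD21 support, against 5 of the 64 same-way pairs and 0 of the 2 divergent ones. The supported pairs had 6 to 37 RAD21 contacts, with a median of 8. On chromosome 9, chr9:61020001-61021000 and chr9:61898001-61899000, around the transcriptional corepressor gene Tle3, had more RAD21 contacts than CTCF contacts, 29 against 21.

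Many unsupported pairs had RAD21 interactions at their anchors. Of the 840, 345 had RAD21 interactions at both anchor bins, 41.1% (37.8 to 44.4%), 395 at one of them and 100 at neither. The same share was not computed for all CTCF interactions without support. Whether 41.1% is particular to the long ones therefore cannot be told. With the supported pairs included, both anchor bins were RAD21 anchors in 579 of the 1074, 53.9%, against 58.3% of all CTCF interactions. With a shift of up to 5 bins allowed at each end, support was 33.2%, against 54.2% of all CTCF interactions. The RAD21 list itself had 285 interactions of 800 kb or more among 23630, and 82.1% of these 285 were also in the CTCF list. Most of the whole RAD21 list was in it as well, 17063 of 23630. Only 4 long CTCF interactions with 25 or more contacts lacked the same bin pair in the RAD21 list. They were chr1:21411001-21412000 with chr1:22269001-22270000 at the potassium channel gene Kcnq5 (27 contacts), chr9:48646001-48647000 with chr9:49489001-49490000 (34), chr15:76955001-76956000 with chr15:77982001-77983000 (30) and chr13:22051001-22052000 with chr13:23401001-23402000 in the Hist1 histone cluster (34). The bin beside the left anchor of the Hist1 pair, chr13:22050001-22051000, had 7 RAD21 contacts with the same right anchor.

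Long interactions had fewer gene starts at their anchors and lay in regions with fewer genes than shorter ones. A protein-coding start site lay in an anchor of 92 of them, 8.57% (7.04 to 10.4%), against 19.3% of shorter interactions, and 4 had one at both ends. Among shorter interactions the share already fell with span, from 25.3% under 100 kb to 11.3% (9.78 to 12.9%) at 600 to 800 kb. By anchor bin, 54.4% were intergenic, 28.2% intronic and 17.4% overlapped an exon. For bins of shorter interactions only, 34.8% were intergenic and 35.6% overlapped an exon. A median of 3 protein-coding genes was enclosed (range 0 to 88). The median per Mb was 2.70, against 7.65 for shorter interactions and 5.76 for those of 600 to 800 kb. No gene was enclosed by 109 of them and 20 or more by 120.

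In all, 74 protein-coding genes had a start in an anchor of a long interaction, and 11 of them were in at least 2 distinct ones. Hoxa7, a homeobox gene of the anterior-posterior axis, stood out by number: its start bin chr6:52221001-52222000 was the right anchor of 8 long interactions in 6 distinct groups. They reached 837 to 1413 kb to the left and had 6 to 24 contacts, and 1 was RAD21-supported, with 6 RAD21 contacts. The bin had 26 CTCF interactions in all. Hoxa5, in the same cluster, was the right anchor of 2, with 10 and 8 contacts. Adra2a, an adrenergic receptor, was the left anchor of 4, with 6 to 8 contacts over 1017 to 1174 kb.

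Ptpru, a receptor tyrosine phosphatase, was the right anchor of 3, the strongest with 33 CTCF and 24 RAD21 contacts over 878 kb and no protein-coding gene wholly enclosed. Synm, an intermediate filament gene, was the right anchor of 3 with 7 to 10 contacts, 1 of which ended in the start bin of Adamts17 on the other side. Pts, an enzyme of tetrahydrobiopterin synthesis, was the right anchor of 4 with 8 to 24 contacts, none of them in the RAD21 list. Rpp30, a subunit of ribonuclease P, was the right anchor of 2 with 8 and 19 contacts, and Ccdc85a of 2 with 6 and 14, both in the RAD21 list. Neto2 and Aadat, an aminotransferase, were the left anchors of 2 each, and Ephb1 the right anchor of 2. The bodies of both Neto2 and Ptpru run to lower coordinates from their starts, so that of Neto2 lies outside the interactions it anchors and that of Ptpru inside them. Of 32851 RefSeq promoters of 300 bases on GRCm38, 3.85% held a core match. That window is shorter than the 1 kb bins, so this share cannot be set against those of the bins.

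Of the protein-coding genes, 2979 of 21951 (13.6%) were enclosed by at least 1 long interaction. Among 15 pluripotency genes the enclosed ones were Sox2, Klf4, Tbx3 and Tdgf1, and among 26 transcription factors of later lineages they were Lhx2, Pax6, Tbx5, Sox9 and Gata4. Of 12 cohesin and CTCF genes Stag1 was enclosed, and of 39 Hox genes 11 were. Odorant receptor genes were enclosed in 235 of 1135 cases (20.7%), vomeronasal receptor genes in 85 of 331 (25.7%) and Zfp genes in 53 of 397 (13.4%). The interaction with the most genes inside, 88, ran from chr7:102513001-102514000 to chr7:103942001-103943000 through an odorant receptor cluster, with 7 CTCF and 6 RAD21 contacts.

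The listed transcription factors lay inside pairs of different strength. Sox9, which directs cartilage and gonad development, was the only gene inside 3 long interactions that ended at chr11:113165001-113166000. The strongest had 11 contacts over 1629 kb, and none was RAD21-supported. Lhx2, a forebrain and limb factor, was inside 4, the strongest with 18 CTCF and 14 RAD21 contacts over 843 kb. Pax6, the eye and forebrain factor, was inside 1 with 11 contacts and no RAD21 support. Klf4 was the only gene inside 2, which shared the left bin chr4:55514001-55515000 and had 14 and 15 CTCF and 8 and 9 RAD21 contacts. Sox2 was inside 3 with 7 or 8 contacts, none RAD21-supported. Tbx3, a T-box factor that supports self-renewal, was inside 18 with 6 to 32 contacts, 5 of them RAD21-supported.

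The histone cluster gave the densest set. The intergenic bin chr13:23401001-23402000 was the right anchor of 15 long interactions, the most at any bin, which reached 1350 to 1691 kb across the Hist1 genes with 6 to 34 contacts. Of 54 Hist1 genes, 34 were enclosed. In all 20 long interactions touched the cluster, 3 were RAD21-supported, and 1 of them, convergent, had a single strand at each anchor. Histone genes and odorant receptors have near-identical copies, and how reads matching several places were treated is not given in the sources used here, so counts in these clusters are uncertain. Chromosome 13 had the most long interactions, 90, or 6.02% of its CTCF interactions, and chromosome 17 had 16, or 0.703%.

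Most long interactions spanned other CTCF interactions, and a share of them could be walked in steps. A median of 9 other CTCF anchor bins, 10 CTCF interactions and 5 RAD21 interactions lay inside. Inside 69 there was no CTCF interaction, and between the anchors of 51 there was no other CTCF anchor. A chain was a series of shorter CTCF interactions inside that led from the left to the right anchor, with successive anchors within 5 kb and no link parallel to the whole. Such a chain existed for 433 of 1074, 40.3% (37.4 to 43.3%). It took 2 links in 417, 3 in 14 and 4 in 2.

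Many of these chains consisted of a long link and a short one. The longest link covered a median of 80.3% of the span, and at least 80% in 223 of the 433. Where each link had to be shorter than 50% of the span, 65 interactions were bridged, 6.05% (4.78 to 7.64%), 59 with 3 links and 6 with 4. The share bridged was 32.5% with 4 to 7 contacts, 61.5% with 15 to 24 and 67.6% with 25 or more. It was 53.0% with RAD21 support and 36.8% without. The weakest link of a chain had a median of 11 contacts, against 9 for the interaction it bridged, and had more contacts than it in 271 of 433 cases. The method favoured this outcome. Among chains with the fewest links, the one whose weakest link had the most contacts was kept. Links also had to be shorter than the interaction, and contacts fell with span, so no conclusion is drawn from the comparison.

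The chromosome 13 pair beside Mef2c showed a chain of short links, with 3 links each under 50% of the span. The Ptpru pair had a chain of 2, from chr4:130960001 to chr4:131254000 with 20 contacts and from chr4:131253001 to chr4:131839000 with 21, against 33 for the whole. The interactions with 4 short links included pairs around the serpin cluster on chromosome 12 (8 contacts, 7 in RAD21), around Lhx2, Nek6 and Psmb7 (7 contacts) and around Igfbp2, Igfbp5 and Tnp1 (7 contacts). At the opposite end stood the Neto2 pair, with 52 contacts and no CTCF interaction inside.

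H3K27ac interactions that crossed the anchors of long CTCF interactions made up a larger share of the list after IAA. An H3K27ac interaction was taken to cross an anchor when its 2 bins of 2 kb lay on opposite sides and neither overlapped it. Without IAA, 457 of 36274 did so, 1.26% (1.15 to 1.38%). After IAA, 524 of 28210 did so, 1.86% (1.71 to 2.02%), although the list was shorter. The log2 ratio of the shares was 0.56 (0.38 to 0.74, counting error only). Without IAA, 15.5% of the long interactions' anchor bins were crossed, with a mean of 0.569 crossings per bin. For anchors whose longest interaction was 600 to 800 kb these were 18.7% and 0.691, and for those under 100 kb 54.7% and 3.79. The 2 lists are 1 pooled set of 2 libraries each, so whether the difference exceeds the spread between replicates cannot be told.

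H3K27ac interactions that ended on the anchors were fewer after IAA. Interactions with a bin on such an anchor went from 356 (0.981% of the list) to 175 (0.620%), and the anchor bins touched went from 156 (10.9%) to 86 (6.02%). For anchors of shorter interactions only, the bins touched went from 25.2% to 18.4%. When interactions that crossed or touched an anchor were counted together, a choice made with the data in view, they made up 2.06% and 2.30% of the lists, a log2 ratio of 0.16 (0.01 to 0.31).

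The ratio was higher for anchors with a longer reach. With CTCF anchor bins sorted by their longest interaction, the log2 ratio of the crossing shares was -0.13 under 100 kb, -0.00 at 100 to 200 kb, 0.16 at 200 to 400 kb, 0.22 at 400 to 600 kb, 0.34 at 600 to 800 kb and 0.56 at 800 kb or more. An H3K27ac interaction can cross anchors of several classes and counts in each. By its own span, the crossing share without and with IAA was 0.330% and 0.557% under 50 kb, 1.61% and 3.05% at 50 to 100 kb, 3.12% and 4.92% at 100 to 200 kb, and 8.18% and 12.0% at 200 to 400 kb. At 400 kb or more it was 20.9% and 21.2%. The median span of crossing interactions was 130 kb without IAA and 111 kb after it, with a median of 10 contacts in both.

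**Figure D3:**
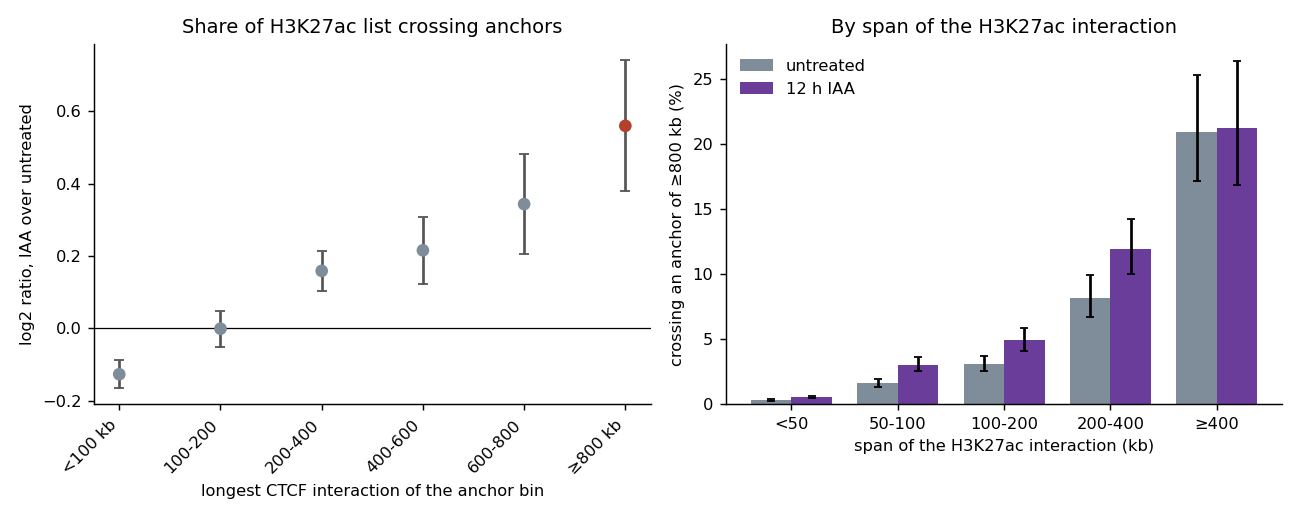
Left, log2 ratio (12 h IAA over untreated) of the share of H3K27ac interactions that crossed CTCF anchor bins, by the longest CTCF interaction of the bin; right, share of H3K27ac interactions of each span that crossed an anchor of a CTCF interaction of 800 kb or more, untreated (grey) and after 12 h of IAA (purple). Bars are 95% counting intervals; the ratio goes from -0.13 to 0.56 across the anchor classes, and the purple bar is clearly above the grey one in the 4 classes under 400 kb but not at 400 kb or more.

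Around the anchors, H3K27ac interactions were fewest over the anchor itself. A mean of 0.565 untreated interactions spanned an anchor bin, against 1.42 at 50 kb inside the long interaction and 0.988 at 50 kb outside it. These means are over 1440 anchor sides, so the 12 bins that are both a left and a right anchor count on each side. The mean at the anchor therefore differs slightly from the mean per bin given above. After IAA the mean was 0.619 at the anchor, 0.943 at 50 kb inside and 0.846 at 50 kb outside. Thus the count over the anchor was higher in the shorter IAA list while the counts on both sides were lower. Per 10000 interactions in the list, the value 50 kb outside was also higher after IAA, 0.300 against 0.272. The value 50 kb inside was lower, 0.334 against 0.391. Further out the value was lower too, 0.302 after IAA against 0.330 without it at 200 kb outside. In steps of 10 kb, it was higher after IAA from 90 kb outside to 10 kb inside and lower at all other positions. The higher share was thus not confined to the anchor bin, but it was local to its surroundings.

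**Figure D4:**
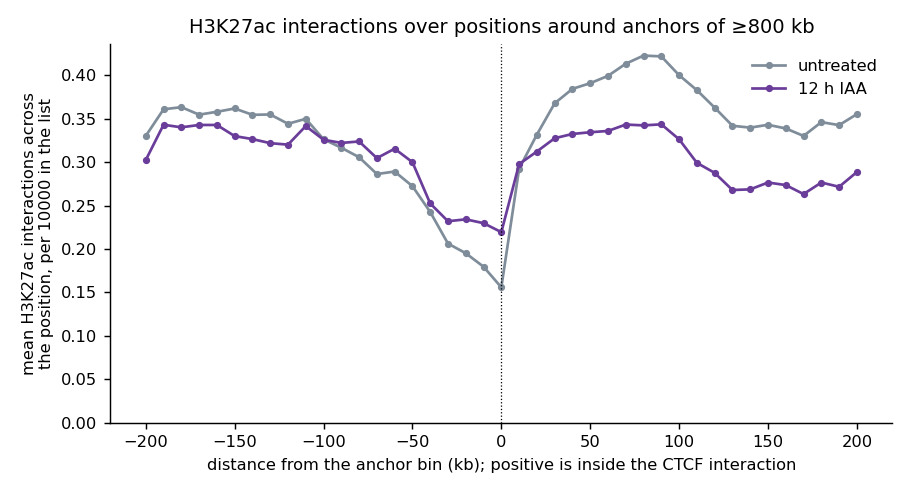
Mean number of H3K27ac interactions that spanned each position from 200 kb outside to 200 kb inside a long CTCF interaction, over both anchors, per 10000 interactions in the list; grey is untreated and purple is 12 h of IAA. The dip at the anchor goes from 0.156 untreated to 0.219 after IAA. The level 50 kb inside goes from 0.391 to 0.334, that 50 kb outside from 0.272 to 0.300, and that 200 kb outside from 0.330 to 0.302.

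The difference varied over the genome. As a share of each chromosome's list, crossing was higher after IAA on 17 of 20 chromosomes and lower on chromosomes 1, 14 and 17. By number, with the shorter IAA list, it was higher on 9, equal on 5 and lower on 6. Of the 1428 anchor bins, 137 had more crossing interactions after IAA, 112 had fewer, 47 had equal counts above 0 and 1132 had none in either list. By interaction, 262 of the 1074 were crossed at an anchor without IAA (24.4%) and 297 after it (27.7%). H3K27ac interactions wholly inside a long interaction kept their share, 14.9% and 14.8% of the lists. No H3K27ac interaction was inside 347 of the long interactions without IAA and 374 after it, and 1 long interaction coincided with an H3K27ac bin pair without IAA and 0 after it.

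Most crossing interactions were in 1 list only. Of the 457 untreated ones 175 were called again after IAA, 38.3% (34.0 to 42.8%), where 42.9% of all untreated interactions were. Crossing interactions are longer than most, and within classes of span the order varied. The share called again was 42.4% of crossing and 46.7% of other untreated interactions under 50 kb, 51.7% and 35.6% at 50 to 100 kb, 37.6% and 31.7% at 100 to 200 kb, 32.6% and 26.4% at 200 to 400 kb, and 26.6% and 34.1% at 400 kb or more. Crossing interactions thus had the higher share in 3 of the 5 classes. Of the 524 after IAA, 33.4% (29.5 to 37.5%) had been called without it, where 55.1% of the whole IAA list had been. In the same classes of span this share was 28.7% to 38.3% for crossing interactions and 35.5% to 58.4% for the others, and it was lower for the crossing ones in each class. At the 175 shared pairs the contacts were 2486 without IAA and 2867 after it. Both counts of each pair were set against the split over all 15551 shared interactions by an exact binomial test, two-sided, which sets pooled libraries rather than conditions against each other. With Benjamini-Hochberg adjustment 0 of 175 passed 0.05, against 0.135% of all shared interactions. Scaled by the model totals, 0 of 175 passed, against 0.386% of all. Without adjustment 9 passed, where 4.41% of all did, and the lowest adjusted p was 0.0612. Relative to the split of the shared contacts, 347765 without IAA and 340816 after it, the 175 pairs had a median log2 ratio of 0.18. It was 0.03 for the whole shared set. By this scaling 68.6% of the pairs were above 0 (120 of 175), where 53.8% of the whole set were. Scaling by the model totals, 12551236 and 14629323, would lower both medians by the same amount and both shares, which were not recomputed. The median of these pairs was thus higher than that of the whole shared set, which includes them. The pairs were not matched to others by span or contact count, so whether the difference belongs to crossing was not tested. Whether contacts rose depends on the scaling.

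At Tbx3 the counts across the anchor and inside differed in opposite directions. The long interaction between chr5:118781001-118782000 and chr5:119691001-119692000, with 32 CTCF and 17 RAD21 contacts, had 89 H3K27ac interactions inside without IAA and 49 after it. Its right anchor, beyond the end of Tbx3, was crossed by 8 without IAA and 13 after it, and its left anchor by 0 in both. The neighbouring right anchor chr5:119686001-119687000 went from 8 to 14. Further out, the right anchors chr5:119712001-119713000 and chr5:119713001-119714000 were crossed by 1 in both lists, and those from chr5:119741001 on by 0 in both. The bin chr5:119713001-119714000 had 22 CTCF contacts with chr5:118879001-118880000. As a share of the H3K27ac interactions of the region, those crossing the right anchor were 8.08% without IAA and 20.3% after it.

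**Figure D5:**
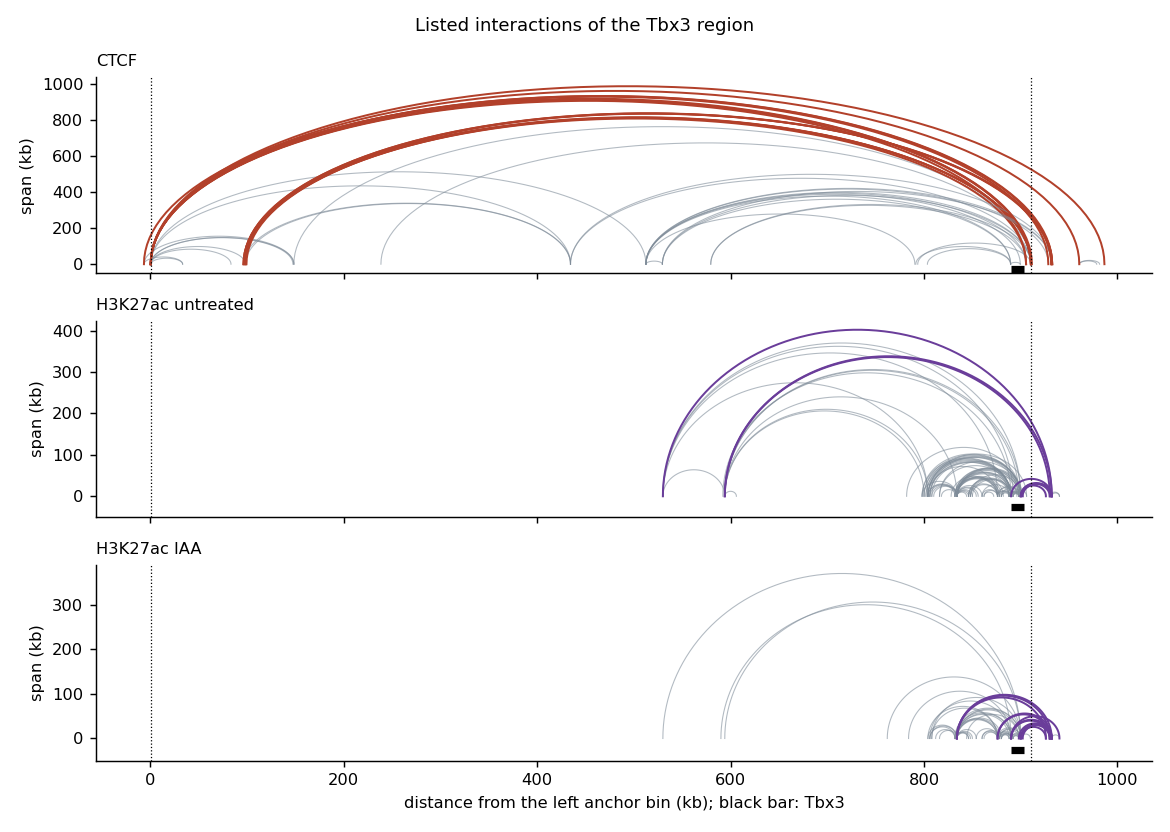
Listed interactions of the Tbx3 region as arcs whose height is their span; the horizontal axis is the distance in kb from the left anchor of the strongest long interaction, the dotted lines are its 2 anchors, and the black bar is Tbx3. CTCF interactions of 800 kb or more are red, and H3K27ac interactions that cross the right anchor are purple: 8 of 99 in the untreated list and 13 of 64 after IAA.

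Other anchors differed in both directions. The bins of chromosomes 2, 6, 7 and 16 and the bin at chr4:55240001 were chosen after their values were seen. At chr2:18027001-18028000 crossing interactions went from 15 to 25, at chr6:122392001-122393000, 51 kb from the start of Phc1, a Polycomb gene, from 26 to 35, and at chr7:4938001-4939000 in Ssc5d from 4 to 13. The bin chr16:31355001-31356000 near Apod, a lipocalin gene, went from 2 to 9. At the shared left anchor of the Klf4 interactions, chr4:55514001-55515000, they went from 17 to 20, and at chr4:55240001-55241000 from 4 to 11.

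Crossing was lower after IAA at some of the most crossed anchors. At Sox2, the left anchor chr3:34647001-34648000, 2 kb from the start of Sox2, was crossed by 10 without IAA and by 4 after it. The other left anchor there, chr3:34639001-34640000, was crossed by 0 and 2, and the right anchors by 0 and 1. All 5 of the interactions most crossed without IAA lay in the Rbfox2 region of chromosome 15 and shared much of their crossing. There, chr15:76973001-76974000 went from 28 to 19. Left anchors of long interactions a short way upstream differed the other way, from 2 to 7 at chr15:76948001-76949000, from 4 to 9 at chr15:76954001-76955000 and from 4 to 9 at chr15:76955001-76956000, 3 bins chosen after their values were seen. The interactions inside the strongest pair of that region, with 38 CTCF contacts, went from 325 to 222. Its left anchor was crossed by 26 and 21 and its right by 7 and 5.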

How the data were processed

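The members and the gene lists were chosen with earlier results of these data known. Per the submitters' processing notes, Trim Galore, BWA, MACS2 and deepTools were used on build mm10; their settings, their versions and the interaction caller's version are not given in the sources used here. Per the file headers, the deposited lists hold contact counts per bin pair (whole numbers, not normalised), an expected contact signal with coverage bias, a contact probability given as a fraction, a q-value and a p-value. The authors pooled the libraries of a group into 1 list, per the labels, and the largest deposited q-value is under 0.05. Bins were 1 kb for CTCF and RAD21 and 2 kb for H3K27ac. The number of model contacts is the median, over a list, of the expected count with coverage bias divided by the probability with bias. The expected count from distance alone is that number times the probability from distance. Nothing in the labels says that replicates came from separate cultures.

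Coordinates count from 1 on GRCm38, and 0 anchors lay beyond a chromosome end. Genes were taken from the GENCODE M21 basic annotation. The reference is not E14, so E14's own alleles were not read. The 14-base CTCF core was searched on both strands with up to 1 mismatch. Values were computed with Python 3.11.15, pandas 2.3.3, numpy 2.4.6 and scipy 1.17.1. The Wilson intervals (95%) reflect counting alone; without molecular identifiers, several reads may stem from 1 molecule. With 1 list per group, the 1 test across interactions was the exact binomial test. On simulated counts for the 15551 shared interactions it recovered 3.5% of 200 changes of 2-fold, 67.5% of 4-fold and 97.0% of 8-fold. Named interactions were the 5 with the largest span, most contacts, highest ratio, most RAD21 contacts and most untreated crossings, leaving out copies within 5 kb. Named genes were those with a start in an anchor of a named interaction or of 2 distinct ones, and listed genes; 1 named interaction on chromosome 18 is not described. The alternatives changed the q-value limit, the contact minimum, the span limit, the bin match, the chain gap and the crossing rule; 34 were set at the start, of which the 2 that need single replicates could not be run, and 5 were added after seeing the data.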

Additional observations from a re-analysis of the deposited data

How the results depend on the processing

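Values were recomputed with 1 choice changed at a time, and 15 of the alternatives set at the start and 3 of those added later gave a value within the counting interval of the reported one. The median ratio of contacts to expected, 6.78, was 8.07 at a q-value of 0.01 or less, 10.6 with at least 10 contacts, 6.52 for spans of 600 kb or more and 138 with the expectation from distance alone. RAD21 support, 21.8%, was 28.5% at a q-value of 0.01 or less, 43.1% with at least 10 contacts, 19.4% for 1 Mb or more, 29.0% within 1 bin and 33.2% within 5 bins. Start sites at anchors, 8.57%, came to 13.3% with anchors widened by 1 kb and also with all annotated genes. Bridged interactions, 40.3%, were 34.7% with links at the same bin, 54.0% within 20 kb, 26.9% with links of at least 10 contacts, 6.05% with links under 50% of the span and 11.8% with RAD21 links. The crossing log2 ratio, 0.56, was 0.16 with bins on the anchor counted and stayed above 0 in the 9 alternatives run, among them 0.66 with lists of the same length and 0.44 without chromosomes 4, 6 and 7. Crossing interactions called again, 38.3%, were 49.5% within 1 bin, where 65.7% of all were, and 52.3% with at least 10 contacts, where 48.7% of all were. No shared crossing interaction passed 0.05 under either scaling. Depth limits these values: with a median of 8 contacts, absence of a long interaction from another list does not show that the contact is absent. No paired analysis was possible because each list pools its replicates, and for the same reason no replicate could be left out.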
